A study of Mus musculus with 3 samples.

Results

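Mature migratory dendritic cells are dendritic cells that express Ccr7, the receptor for chemokines of lymph vessels and lymph nodes, together with the actin-bundling protein fascin (Fscn1). They were chosen in single-cell RNA-seq libraries of mouse femoral artery by detected genes. A member held at least 300 genes and at most 15% mitochondrial UMIs, which are the counted RNA molecules. It had at least 3 of the 5 genes Ccr7, Fscn1, Ccl22, Il4i1 and Cacnb3, among them Ccr7 or Fscn1, and at least 5 UMIs of the MHC class II gene H2-Ab1. It had no UMI of the B cell gene Cd79a or the T cell gene Cd3e and at most 1 UMI of the macrophage gene C1qa. The rule found 135 of 30135 kept cells. There were 5 in the library of sham-operated arteries (Sham), 73 in that taken 2 days after wire injury (D2) and 57 in that taken 7 days after it (D7).

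The study concerned IL-33 and macrophages in the wall thickening of injured arteries. The mice were wild-type (WT) males of 8 weeks, and femoral artery injury (FAI) was made with a wire. Live single cells were sorted on DAPI, and cells of 6 mice were pooled for each group. A group is therefore 1 library with no replicate, so no test and no p-value is given. Every interval below is a 95% interval that covers counting error only. Animals, surgery and library cannot be told apart in any difference between D7 and D2, and the 5 Sham cells are given as values without a comparison.

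Dendritic cells sample antigen in tissues and present it to T cells. When they mature, they lower uptake, show peptide on MHC class II, raise co-stimulatory ligands and follow the CCR7 ligands CCL19 and CCL21 through lymph vessels to the draining node. The same programme includes molecules that restrain T cells, and it can arise from both conventional dendritic subsets, cDC1, which cross-present, and cDC2, which prime helper T cells. The NF-kB pathway, above all its alternative branch through NIK (Map3k14), NFKB2 and RELB, is known to drive this maturation.

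The 5 genes of the rule name the cells and are no finding. Ccr7 (ENSMUSG00000037944, GRCm38 chr11:99144196-99155077, minus strand) was detected in 5 of 5, 73 of 73 and 56 of 57 members of Sham, D2 and D7, with a median of 14, 13 and 15 UMIs per cell. Il4i1, a secreted amino acid oxidase (ENSMUSG00000074141, chr7:44816387-44840809), was detected in 5, 72 and 55 members. Fscn1 (ENSMUSG00000029581, chr5:142960343-142973185) was found in 2, 52 and 44, and Cacnb3, a calcium channel subunit, in 3, 37 and 36. The chemokine Ccl22 (ENSMUSG00000031779, chr8:94745590-94751699) was found in 5, 42 and 30. All 5 rule genes were present in 2, 16 and 17 members. The genes of the dendritic lineage, which the rule did not use, were also there: Flt3, the growth factor receptor of dendritic cells, or Zbtb46, their transcription factor, had a UMI in 5 of 5, 70 of 73 and 55 of 57 members. Fibroblast-rule cells hold at least 3 of Col1a1, Col1a2, Dcn, Lum and Pdgfra, no UMI of the leukocyte gene Ptprc and at most 4 of H2-Ab1. In them Flt3 had a UMI in 1.40% in D2 and 0.168% in D7, and Zbtb46 in 3.50% and 8.02%. Their median depth was 2511 UMIs in D2 and 11147 in D7, against 12536 and 11024 in members. The D2 shares thus come from unlike depths.

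The 3 libraries held 7757 to 11690 barcodes and 39756684 to 100571340 UMIs, and 217 to 363 barcodes a library failed the filters. Members were deep cells, with a median of 14514, 12536 and 11024 UMIs in Sham, D2 and D7, against 4140, 7056 and 6864 over all kept cells. Pairs of libraries shared 17 to 27 barcodes, and no member held one. A doublet caller, Scrublet, marked 472 D2 cells and 228 D7 cells, among them 2 D2 members and 0 D7 members. It called 0 cells in Sham and so did not work there.

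RNA of other cell types was present in many members. Of the 57 D7 members, 9 held 31 to 793 UMIs of the fibroblast collagen gene Col1a1, while the next highest D7 member held 3 and no D2 member held more than 1. Of these 9, 8 also held the fibroblast gene Pdgfra, 7 held Flt3 and none was called a doublet. The neutrophil gene S100a8 reached 48 to 161 UMIs in 4 of 73 D2 members and 94 to 244 in 2 of 57 D7 members. The 8 fibroblast markers summed to 12386 CPM in D7 members and 50.2 CPM in D2 members, and to 29193 and 935 CPM in the whole D7 and D2 libraries. CPM, counts per 1000000 UMIs, is taken over the summed UMIs of the cells named. The 10 neutrophil markers summed to 1830 CPM in D7 members and 1846 CPM in D2 members. Over whole lists, 27 of 57 D7 members (47.4%) and 0 of 73 D2 members held at least 3 fibroblast markers. In D7 so did 39.6% of cDC2-rule and 48.8% of cDC1-rule cells, the other dendritic cells defined below. At least 3 of 12 macrophage markers were held by 12 D7 and 22 D2 members (21.1% and 30.1%), against 56.2% and 75.1% of cDC2-rule cells. Their sums in members were 728 and 651 CPM, against 8622 and 20678 CPM in the whole libraries. At least 3 of 8 plasmacytoid dendritic cell markers were held by 19 D7 and 30 D2 members (33.3% and 41.1%), against 34.3% and 36.7% of cDC2-rule cells. At least 3 of 10 neutrophil markers were held by 6 and 14 members (10.5% and 19.2%), against 5.66% and 23.3% of cDC2-rule cells. At least 3 T or NK cell markers were found in 0 D7 and 2 D2 members, and at least 3 of B cells in none. The rule left out cells with a Cd79a or Cd3e UMI or over 1 C1qa UMI. Low B cell, T cell and macrophage values were thus partly set by the choice of cells. Counting the lists of fibroblasts, neutrophils, B cells, T and NK cells, endothelium, mural cells and mast cells, 29 of 57 D7 and 16 of 73 D2 members held at least 3 markers of 1 of them. So did 127 of 265 D7 and 131 of 523 D2 cDC2-rule cells, and 43 of 84 D7 and 20 of 98 D2 cDC1-rule cells. Results that such RNA could touch are also given after leaving out cells with at least 20 Col1a1 or S100a8 UMIs, a limit set after seeing these values, which leaves 46 D7 and 69 D2 members. Beyond that, the part of this RNA in the results was not tested.

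Because the NF-kB pathway is central to this maturation, promoter sequence is shown for 4 genes that hold its binding motif. Their level in members was at least 1.5 times that in Cd209a dendritic cells, the cDC2-rule cells defined below, in both D2 and D7. Each line is the 250 bases before a RefSeq transcript start of the gene, 5′ to 3′ on the gene's strand, on GRCm38.p6. Nfkb2 has 3 such starts and Tnfrsf9 has 2, and the first window with a match is shown. The Nfkb2 window lies inside the gene as GENCODE draws it, which begins at 46304320, and the other Tnfrsf9 window, chr4:150919905-150920154, holds no match. Capitals mark a match to the kB motif, the 10-letter consensus bound by NF-kB, searched on both strands with overlapping matches merged. Nfkb2, the precursor of the p52 subunit, lies at chr19:46304487-46304736 (plus strand) and Rel, the c-Rel subunit, at chr11:23770970-23771219 (minus strand). Traf3, an adaptor that holds NIK in check, lies at chr12:111166120-111166369 (plus strand) and Tnfrsf9, the co-stimulatory receptor 4-1BB, at chr4:150927749-150927998 (plus strand).
Nfkb2: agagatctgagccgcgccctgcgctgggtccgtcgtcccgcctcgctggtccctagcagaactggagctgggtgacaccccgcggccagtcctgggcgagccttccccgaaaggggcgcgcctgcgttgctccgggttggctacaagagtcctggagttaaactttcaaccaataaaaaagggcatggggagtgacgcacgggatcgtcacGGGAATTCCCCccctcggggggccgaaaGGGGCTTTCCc
Rel: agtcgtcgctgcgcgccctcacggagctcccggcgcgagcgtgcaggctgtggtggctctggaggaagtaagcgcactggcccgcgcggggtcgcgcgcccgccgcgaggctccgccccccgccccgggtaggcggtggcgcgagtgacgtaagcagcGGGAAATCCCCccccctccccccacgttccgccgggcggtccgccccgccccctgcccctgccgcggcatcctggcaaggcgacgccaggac
Traf3: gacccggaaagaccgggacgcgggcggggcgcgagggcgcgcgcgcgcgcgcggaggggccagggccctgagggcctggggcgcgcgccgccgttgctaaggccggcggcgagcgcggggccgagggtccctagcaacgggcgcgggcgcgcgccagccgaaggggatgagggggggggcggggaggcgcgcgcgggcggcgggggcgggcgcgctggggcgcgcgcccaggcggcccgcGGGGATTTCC
Tnfrsf9: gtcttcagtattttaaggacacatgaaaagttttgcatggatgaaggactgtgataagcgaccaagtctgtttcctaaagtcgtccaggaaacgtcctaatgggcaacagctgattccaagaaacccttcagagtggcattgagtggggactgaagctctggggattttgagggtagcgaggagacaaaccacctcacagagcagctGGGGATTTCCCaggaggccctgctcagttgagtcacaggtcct

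Of 60 genes in the lists of NF-kB and survival, co-stimulation and restraint, 21 were at least 1.5 times as high in members in both libraries, and 18 of the 21 had a promoter entry. A kB match was present in 6 of the 18, the 4 shown with Icosl and Pdcd1lg2, and not in the other 12, which included Birc2, Traf1 and Cd274. The motif was found in such a window of at least 1 start in 8.23% of 27025 genes. It was found in 8 of the 22 NF-kB and survival genes with an entry (36.4%), in 2 of 9 co-stimulation genes (22.2%) and in 3 of 18 restraint genes (16.7%). In Nfkb2 the 3 matches make 2 blocks, the nearer at -11 from the start, and the Traf3 match is the last 10 bases before the start. A match is a description of letters, and an absent one says nothing of the factor.

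Members were a small share of every library. Of the cells that passed the filters, 0.0671% were members in Sham (0.0218% to 0.157%), 0.636% in D2 (0.499% to 0.799%) and 0.508% in D7 (0.385% to 0.658%). Cells that met the rule of members, of cDC2, of cDC1 or of both cDC2 and cDC1 are counted together as dendritic. As a share of these, members were 1.72% of 291 in Sham, 10.5% of 697 in D2 (8.30% to 13.0%) and 13.7% of 416 in D7 (10.5% to 17.4%). The D7 share of kept cells was 0.799 times the D2 share (0.555 to 1.15), an interval that includes equal shares. Cd209a dendritic cells, called cDC2-rule cells here, carry at least 2 of Cd209a, Flt3, Clec10a and Cd209d including Cd209a, with the same H2-Ab1, B, T and macrophage limits. Their shares were 2.67%, 4.56% and 2.36% in Sham, D2 and D7, and cDC1-rule cells, defined likewise on Xcr1, Clec9a, Cadm1 and Gcsam, had 0.966%, 0.854% and 0.749%. The sort for live cells can set such shares. The D7 to D2 ratio was 0.682 (0.459 to 1.01) without the cells rich in Col1a1 or S100a8. It was 1.22 (0.737 to 2.02) when cells with at least 2000 UMIs were thinned to 2000 before the rule. After thinning, the rule asked for any H2-Ab1 UMI in place of at least 5, so depth and this looser limit cannot be told apart. The direction of the ratio is thus not settled.

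**Figure D1:**
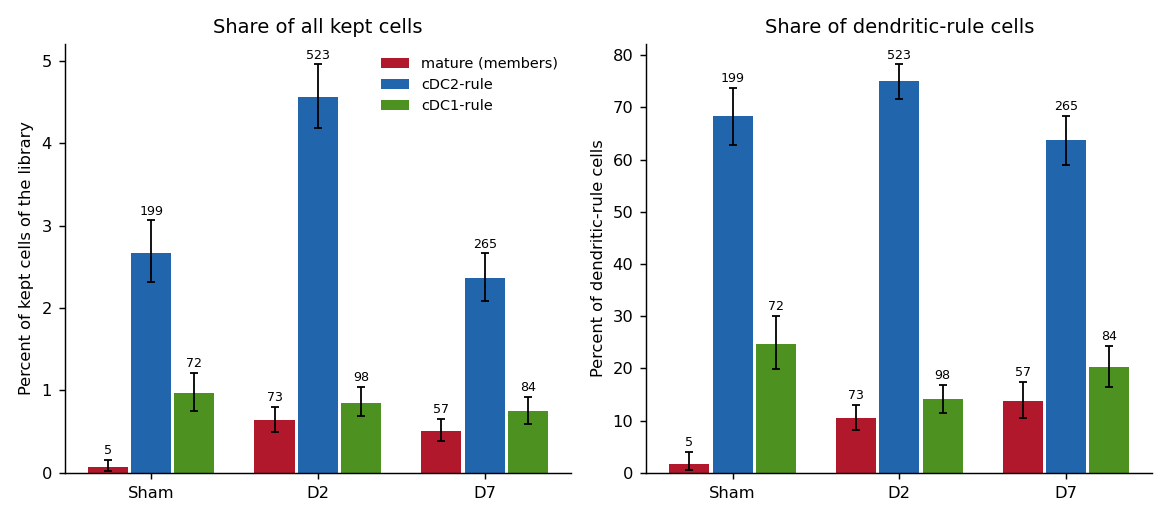
Share of members, cDC2-rule and cDC1-rule cells in each library, as percent of kept cells (left) and of dendritic-rule cells (right). Bars are shares, error bars 95% Clopper-Pearson intervals that cover counting error only, and the number above a bar is its cells. Members are 5 cells in Sham, 73 in D2 and 57 in D7.

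The cells just outside the rule differed from those just inside it in some genes and not in others. Cells with exactly 2 of the rule genes numbered 19, 60 and 53 in Sham, D2 and D7. Relb, a NF-kB subunit the rule did not use, stood at 410 CPM in D2 members with exactly 3 rule genes and at 234 CPM in the 2-gene cells outside. In D7 these were 369 and 228 CPM. Cd209a was at 174 CPM inside and 375 CPM outside in D2, and at 78.1 and 414.7 CPM in D7. Cd86 and Flt3 did not mark the border in the same way. Cd86 was at 1010 CPM inside and 945 CPM outside in D2, and at 796 and 1014 CPM in D7. Flt3 was at 356 and 297 CPM in D2, and at 202 and 280 CPM in D7. The H2-Ab1 limit kept out a further 9 D7 cells with 1 to 4 UMIs and 15 with none, and 1 and 1 such cells in D2. Cd86 was at 887 CPM in those 9 D7 cells and at 89.5 CPM in the 15.

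Among the members, some genes differed with the number of rule genes detected, a split that uses what the rule selected on. Relb was at 410, 576 and 632 CPM in the D2 members with 3, 4 and 5 rule genes and at 369, 522 and 561 CPM in those of D7. Socs2, an inhibitor of cytokine signalling, was at 63.9, 328 and 427 CPM in D2 and at 160, 532 and 422 CPM in D7. The MHC class II gene H2-Aa ran in the opposite direction, at 12551, 10421 and 10790 CPM in D2 and 8603, 6651 and 6976 CPM in D7. In both libraries the members with 4 or 5 rule genes thus stood above those with 3 in Relb and Socs2 and below them in H2-Aa. Cd86 showed no such order, at 1010, 986 and 1100 CPM in D2 and 796, 854 and 744 CPM in D7.

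Against the cDC2-rule cells of the same library, 269 of 3256 measured genes were at least 2 times as high in members in both D2 and D7 (8.26%) and 246 were at least 2 times as low in both (7.56%). A gene was measured if the population with more of it reached 50 CPM and 20 UMIs, so a gene near 0 in the other population could only enter as apart. With the 1.5-fold limit used for gene lists, 13.8% of measured genes were higher and 15.3% lower, and the median log2 ratio over all measured genes was -0.09 in D2 and -0.09 in D7. The 5 rule genes are left out of every list. Members were chosen by expression, so these contrasts describe the cells and test nothing.

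**Figure D2:**
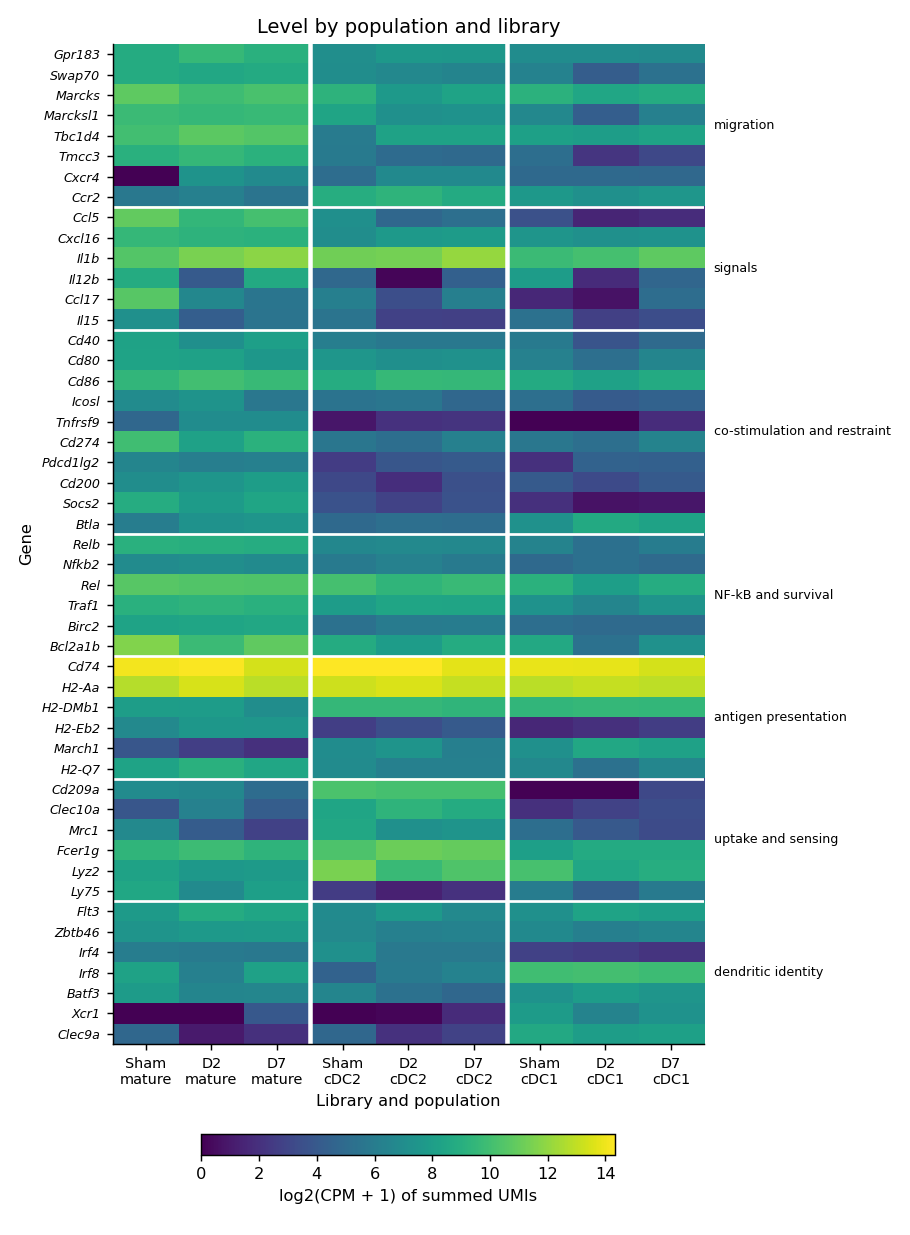
Level of genes grouped by role in members (mature), cDC2-rule and cDC1-rule cells of each library, as log2(CPM + 1) of summed UMIs, with yellow highest. The member columns are brighter for Tbc1d4, Ccl5, Socs2, Relb and H2-Eb2 and darker for Cd209a, Mrc1 and March1, and Sham members are 5 cells.

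Genes of cell movement split. Of 17 measured migration genes, 8 were at least 1.5 times as high in members in both libraries and 7 as low, with median log2 ratios of 0.51 in D2 and 1.13 in D7. The higher ones included Gpr183, the oxysterol receptor that positions dendritic cells in lymphoid organs, at 775 CPM in D2 members against 200 CPM in D2 cDC2-rule cells (3.87-fold, 3.53 to 4.24), and 544 against 188 CPM in D7. Swap70, which couples signalling to actin, was at 383 and 429 CPM in D2 and D7 members, against 102 and 88.7 CPM. Marcksl1, an actin-regulating kinase substrate, was 5.15-fold higher in D2 (4.67 to 5.67) and 5.24-fold in D7 (4.62 to 5.94). Tbc1d4, a Rab GTPase regulator, reached 1711 and 1461 CPM, against 311 and 308 CPM.

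The lower genes of the list included receptors for inflammatory chemokines. Ccr2, which brings cells into inflamed tissue, was at 73.6 CPM in D2 and 44.2 CPM in D7 members, against 644 and 430 CPM in cDC2-rule cells. It was 8.75-fold lower in D2 (6.90 to 11.3) and 9.72-fold lower in D7 (6.78 to 14.5). Ccr1, Cx3cr1, the integrin chain Itgb7, the hyaluronan receptor Cd44 and Vim were also among them. Cxcr4, the CXCL12 receptor, was at 161 and 116 CPM in members and 113 and 113 CPM in cDC2-rule cells, under the 1.5-fold limit in both libraries.

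Secreted signals differed between the libraries in how they set members apart from cDC2-rule cells. In D2, 4 of 13 measured chemokine and cytokine genes were higher in members and 5 lower, and in D7 8 of 15 were higher and 4 lower, where 18.3% and 22.1% of all measured genes were as high. Of 12 measured in both, 3 were higher in both and 2 lower. Ccl5, a chemokine for T cells, was at 734 CPM in D2 and 1124 CPM in D7 members, against 26.7 and 37.0 CPM, which is 27.5-fold (23.3 to 32.7) and 30.4-fold (24.8 to 37.6). The cells were not uniform, since 52 of 73 D2 and 39 of 57 D7 members had a Ccl5 UMI. Cxcl16, the ligand of CXCR6, was at 624 and 562 CPM, against 217 and 232 CPM, and Tnf was the other higher gene. The monocyte-type chemokines Ccl6 and Ccl9 were lower. Il1b, an inflammatory cytokine, was at 2825 and 3702 CPM in members and at 2645 and 4231 CPM in cDC2-rule cells.

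Several cytokines of dendritic cells were at or near 0. Il10 had a UMI in 1 of 73 D2 and 3 of 57 D7 members, Il12a in 0 and 1, and Il23a in 5 and 3. Ido1, an enzyme of tryptophan breakdown, had none in either, which allows up to 4.11% of D2 and 5.26% of D7 members with a UMI. The IL-33 receptor gene Il1rl1 and the cytokine genes Il4 and Il13 had none either. Il33 itself was at 67.8 CPM in D7 members and 1.07 CPM in D2 members, with 73.9% of the D7 UMIs in 3 cells. Without the cells rich in Col1a1 or S100a8 it had 7 UMIs in 46 D7 members and 1 UMI in 69 D2 members.

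Part of the co-stimulation list was higher in members. Of 13 measured genes, 6 were higher in both libraries and 1, Cd48, was lower, with median log2 ratios of 0.91 in D2 and 0.69 in D7. Only 10 genes of the list reached 50 CPM and 20 UMIs in cDC2-rule cells of D2 or D7, and the others could not come out lower. Cd40, the receptor through which helper T cells license dendritic cells, was at 139 and 270 CPM in D2 and D7 members, against 52.5 and 52.5 CPM. That is 2.64-fold in D2 (2.14 to 3.24) and 5.14-fold in D7 (4.12 to 6.41). Tnfrsf9 was at 126 and 127 CPM, against 3.19 and 3.45 CPM, and Tnfrsf4 (OX40) at 51.2 and 72.2 CPM, against 1.52 and 2.07 CPM. The classical B7 ligands differed less. Cd80 was 2.09-fold higher in D2 and 1.26-fold in D7, and Cd86 1.33-fold (1.24 to 1.42) and 1.06-fold (0.959 to 1.16).

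A UMI of Cd86 was found in 100% of D2 members and 92.0% of D2 cDC2-rule cells, and in 96.5% of D7 members and 86.0% of D7 cDC2-rule cells. After thinning each cell to 2000 UMIs these shares were 80.8% and 65.7% in D2 and 73.7% and 57.6% in D7. In fibroblast-rule cells, which should lack the gene, the shares were 7.69% in D2 and 1.51% in D7, and 1.32% and 0.464% after thinning. Their median depths were 2511 and 11147 UMIs. Cd86 was thus present in nearly every member and in most cDC2-rule cells.

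Several genes that restrain T cells or cytokine signals were higher in members. Of 10 measured, 7 were higher in both libraries and 0 lower, with median log2 ratios of 2.15 in D2 and 2.21 in D7. Only 4 genes of the list reached 50 CPM and 20 UMIs in cDC2-rule cells of D2 or D7. The others were measured through members alone and could not come out lower, so these counts and medians carry little weight. Cd274 (PD-L1) was at 297 and 579 CPM in D2 and D7 members, against 35.2 and 76.0 CPM, or 8.43-fold (7.06 to 10.1) and 7.63-fold (6.45 to 9.03). Pdcd1lg2 (PD-L2) was at 68.3 and 73.7 CPM, against 13.5 and 15.9 CPM. Cd200, a ligand that quiets myeloid cells, was at 176 and 255 CPM, against 2.73 and 10.4 CPM. Socs2 was at 237 and 345 CPM, against 6.22 and 11.4 CPM, the inhibitory receptor Btla at 157 and 175 CPM, against 37.2 and 33.8 CPM, and the death receptor Fas was 10.6-fold and 5.03-fold higher. Rel, which is also among the NF-kB and survival genes and is counted in both lists, was the other gene of the 7. Genes of both the co-stimulatory and the restraining list were thus higher in the same population.

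The NF-kB and survival list had 10 of 20 measured genes higher in both libraries and 0 lower, with medians of 0.83 and 0.68. Among the 10, Relb, Nfkb2 and Map3k14 form the alternative branch, which Traf3, Birc2 and Birc3 regulate. Relb was at 518 and 470 CPM in D2 and D7 members, against 108 and 101 CPM, or 4.81-fold (4.27 to 5.40) and 4.66-fold (3.97 to 5.48). Nfkb2, whose promoter with 3 matches is shown above, was at 137 and 114 CPM, against 77.4 and 55.9 CPM. Map3k14 was at 448 and 301 CPM, against 195 and 148 CPM, and Traf3 at 260 and 379 CPM, against 117 and 99.1 CPM. Birc2, the cIAP1 ubiquitin ligase, was 5.66-fold (4.87 to 6.57) and 6.16-fold (5.08 to 7.48) higher. The canonical subunit Nfkb1 was at 733 and 715 CPM, against 606 and 787 CPM, and Rela and Nfkbia also stayed under the limit. Of the survival genes, Bcl2a1b was at 875 and 1804 CPM, against 246 and 459 CPM, a value that is uncertain because Bcl2a1 paralogs are nearly identical, and Mcl1 was at 617 and 619 CPM, against 825 and 823 CPM.

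Relb was also detected in nearly every member. It had a UMI in 98.6% of D2 and 98.2% of D7 members, against 63.5% and 57.0% of cDC2-rule cells. At 2000 UMIs per cell the shares were 53.4% and 49.1% in members, 20.5% and 16.3% in cDC2-rule cells and 2.63% and 6.50% in fibroblast-rule cells.

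**Figure D3:**
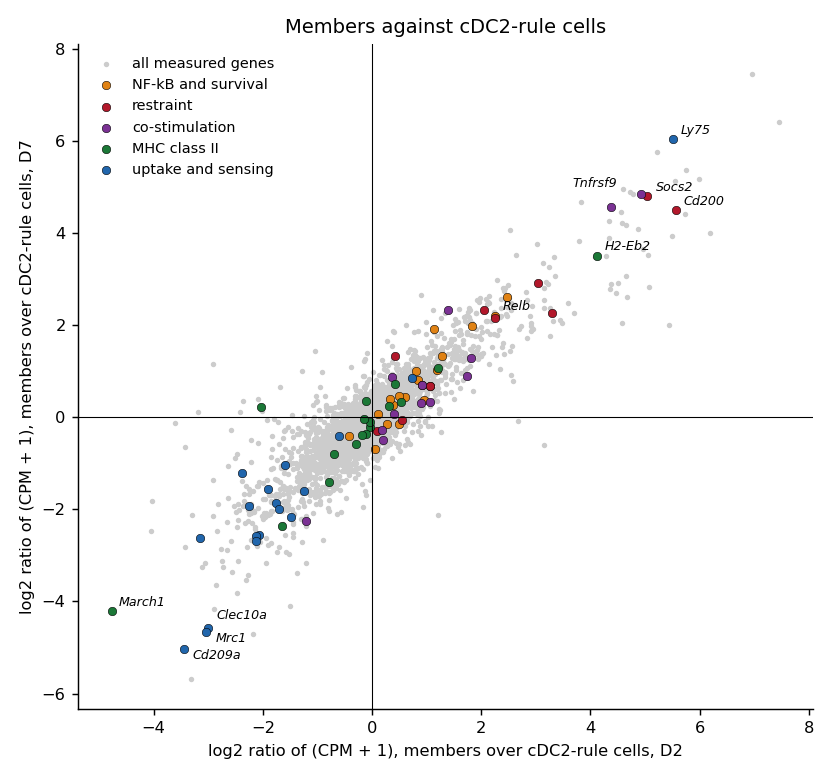
log2 ratio of (CPM + 1) of members over cDC2-rule cells in D2 (x) and D7 (y), with grey points for all measured genes and coloured points for listed genes. Restraint genes such as Cd200 and Socs2 and the uptake receptor Ly75 lie at upper right, and Cd209a, Mrc1, Clec10a and March1 at lower left. Members and cDC2-rule cells of D2 and D7 are separate libraries, so the axes share no cells.

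MHC class II transcripts themselves were near those of cDC2-rule cells, while the machinery around them differed. Of 17 measured genes without H2-Ab1, 2 were higher and 4 lower in both libraries, with medians of -0.11 and -0.09. H2-Aa was at 11435 CPM in D2 and 7558 CPM in D7 members, against 11689 and 8713 CPM. March1, the ligase that sends MHC class II and CD86 to degradation and is known to be shut off on maturation, was at 5.34 CPM in D2 and 2.95 CPM in D7 members, against 172 and 71.8 CPM. These levels rest on UMIs in 4 D2 and 2 D7 members, and the ratio was 32.1-fold lower in D2 (13.7 to 99.2) and 24.4-fold lower in D7 (6.66 to 203). The peptide loading genes H2-DMa and H2-DMb1 were lower, H2-DMb1 at 242 and 131 CPM, against 758 and 674 CPM. The variant chain H2-DMb2 was higher, at 405 and 214 CPM, against 174 and 101 CPM, as was H2-Eb2, at 189 and 187 CPM, against 9.86 and 15.5 CPM (19.2-fold, 14.3 to 25.9, and 12.1-fold, 8.51 to 17.3).

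For MHC class I, 4 of 15 measured genes were higher in both libraries and 1 lower, with medians of 0.40 and 0.70. The proteasome activator Psme2 was at 434 and 646 CPM in D2 and D7 members, against 144 and 185 CPM. The peptide transporter Tap2 and the class I transactivator Nlrc5 were others. H2-Q7 was 7.50-fold and 4.64-fold higher, which is uncertain because class Ib genes resemble each other closely.

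Genes of uptake and pathogen sensing were mostly lower in members than in cDC2-rule cells. Of 18 measured genes, 15 were at least 1.5 times as low in members in both libraries and 2 were higher, with medians of -2.07 and -1.92. Cd209a and Clec10a chose the cDC2-rule cells, and without them 13 of 16 were lower, with medians of -1.83 and -1.89. Only 12 genes of the list reached 50 CPM and 20 UMIs in members of D2 or D7. The others were measured through cDC2-rule cells alone and could not come out higher, so part of these counts and medians was set by that limit. With an estimate of free RNA subtracted, the medians were -3.64 in D2 and -6.15 in D7. The D7 estimate includes the Col1a1-rich cells, without which the fibroblast markers of D7 members summed to 269 CPM in place of 12386 CPM, so the D7 value takes off more than the other members hold of these markers. Mrc1, the mannose receptor, was at 17.1 and 5.90 CPM in D2 and D7 members, against 147 and 173 CPM. Fcer1g, the common Fc receptor chain, was at 926 and 651 CPM, against 2185 and 1978 CPM, and lysozyme (Lyz2) at 196 and 227 CPM, against 858 and 1364 CPM. The exception was Ly75 (DEC-205), an endocytic receptor that delivers antigen to MHC loading, at 114 and 268 CPM, against 1.52 and 3.11 CPM. It was 75.3-fold higher in D2 (39.4 to 162) and 86.3-fold in D7 (44.5 to 192), the highest of all genes by the naming rule, and had a UMI in 25 of 73 and 30 of 57 members. Lamp1 was the other higher gene.

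Further genes were named by that rule, which ranks genes by the smaller of the D2 and D7 ratios. Fabp5, a fatty acid carrier, was at 6906 and 6878 CPM in D2 and D7 members, against 185 and 126 CPM, or 37.4-fold (35.1 to 39.7) and 54.4-fold (48.9 to 60.7). It had a UMI in 71 of 73 and 54 of 57 members. Eno3, the muscle enolase, was at 206 and 137 CPM, against 6.52 and 3.80 CPM, while 6 of 13 measured genes of the glycolysis list, Eno1 and Ldha among them, were lower in both libraries and 0 higher. Mreg, a melanosome transport protein, was at 507 and 349 CPM, against 16.4 and 19.7 CPM. Dpp10, Syn3, Strip2 and Tmcc3, a gene of the migration list, completed the highest 12, and Ctnnd2, Tm6sf1, Iqgap2 and Cd300c2 were among the lowest 8.

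As a summed list, genes of cDC2 identity stood between the levels of both conventional subsets. Of 14 measured, 9 were lower than in cDC2-rule cells in both libraries and 0 higher, with median log2 ratios of -1.49 in D2 and -1.74 in D7. Without the genes of the cDC2 rule, 6 of 11 were lower, with medians of -1.37 and -0.66. Of the whole list, only 11 genes reached 50 CPM and 20 UMIs in members of D2 or D7, and the others could not come out higher. The list summed to 3709 CPM in D2 members, against 5727 CPM in cDC2-rule and 1497 CPM in cDC1-rule cells, and in D7 to 2698 CPM, against 4838 and 1159 CPM. These sums hold Cd209a, Clec10a and Cd209d, which the cDC2 rule used, so part of the higher cDC2-rule sums was set by the choice of cells. Sums without these genes were not taken. Irf4, the transcription factor of cDC2, did not follow, at 58.7 and 53.1 CPM in D2 and D7 members, against 54.6 and 54.9 CPM. Of the pan-dendritic list, 3 of 12 measured genes were higher and 3 lower, and Zbtb46 was at 211 and 226 CPM, against 74.2 and 80.1 CPM.

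Against cDC1-rule cells, 444 of 3355 measured genes were at least 2 times as high in members in both libraries (13.2%) and 355 as low (10.6%), and at 1.5-fold 18.9% were higher and 21.2% lower. All 16 measured cDC1 identity genes were lower, with medians of -6.22 in D2 and -4.58 in D7, and so were all 12 that the cDC1 rule did not use. Only 5 genes of the list reached 50 CPM and 20 UMIs in members of D2 or D7. The others were measured through cDC1-rule cells alone and could not come out higher, so these counts and medians carry little weight. Of the NF-kB and survival list, 18 of 20 were higher in both libraries and 0 lower, and of co-stimulation 10 of 13 were higher and 2 lower. Uptake and sensing genes, lower than in cDC2-rule cells, were here higher in 5 of 9 measured and lower in 3, with medians of 1.56 in D2 and 1.27 in D7. Of cDC2 identity genes 5 of 8 were higher and 2 lower, and of chemokines and cytokines 7 of 12 were higher and 1 lower. Xcr1 had no UMI in 73 D2 members and 10 UMIs in 1 of 57 D7 members. A UMI of Xcr1, Clec9a or Cadm1 was found in 4 D2 and 7 D7 members, and one of Cd209a, Clec10a or Cd209d in 17 and 9. Neither set was detected in 53 of 73 (72.6%) and 41 of 57 (71.9%), so most members had no UMI of these 6 genes at this depth.

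Among growth factor and type 2 cytokine genes, 4 of 14 measured were higher than in cDC2-rule cells in both libraries and 2 lower. Il2ra, the high-affinity chain of the IL-2 receptor, was at 185 and 158 CPM in D2 and D7 members, against 7.89 and 20.4 CPM. Il7r was 6.50-fold higher in D2 (5.47 to 7.74) and at 111 CPM in D7 members against 117 CPM in D7 cDC2-rule cells. Crlf2, which pairs with IL-7R alpha in the TSLP receptor, was one of the lower genes.

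Early response genes that handling of tissue can induce were also compared. In D2, 9 of 16 measured were lower in members than in cDC2-rule cells and 1 was higher, with a median log2 ratio of -0.60, where 22.1% of measured genes were as low. In D7, 3 of 17 were lower and 1 higher, with a median of -0.45. The list summed to 8629 CPM in D2 members against 12095 CPM in D2 cDC2-rule cells, and to 7617 against 9648 CPM in D7. In both libraries together 2 of 16 were lower, and 7 of 16 without the cells rich in Col1a1 or S100a8. Its part in the other differences was not tested.

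Between D7 and D2, the highest ratios in members were those of matrix genes that a few D7 cells carried. Of 3477 measured genes, 303 were at least 2 times as high at D7 (8.71%) and 110 as low (3.16%). The 8 highest by the naming rule were matrix genes, Col1a2, Col1a1, Mgp, Col3a1, Eln, Sparc, Dcn and Bgn. Col1a1 was at 3720 CPM in D7 and 2.13 CPM in D2 members, and 65.8% of its D7 UMIs were in 3 cells. Without the cells rich in Col1a1 or S100a8, 156 of 3248 genes were higher (4.8%) and 121 lower (3.73%). Without the 29 D7 and 16 D2 members of mixed markers described above, the counts were 103 higher and 174 lower. In cDC2-rule cells 82 of 3364 were at least 2 times as high at D7 (2.44%) and 35 as low (1.04%). Values below for interferon-response genes and for genes higher across many D7 members are for 46 D7 and 69 D2 members, unless all members are named. In those cells Col1a1 was at 83.8 and 1.17 CPM.

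**Figure D4:**
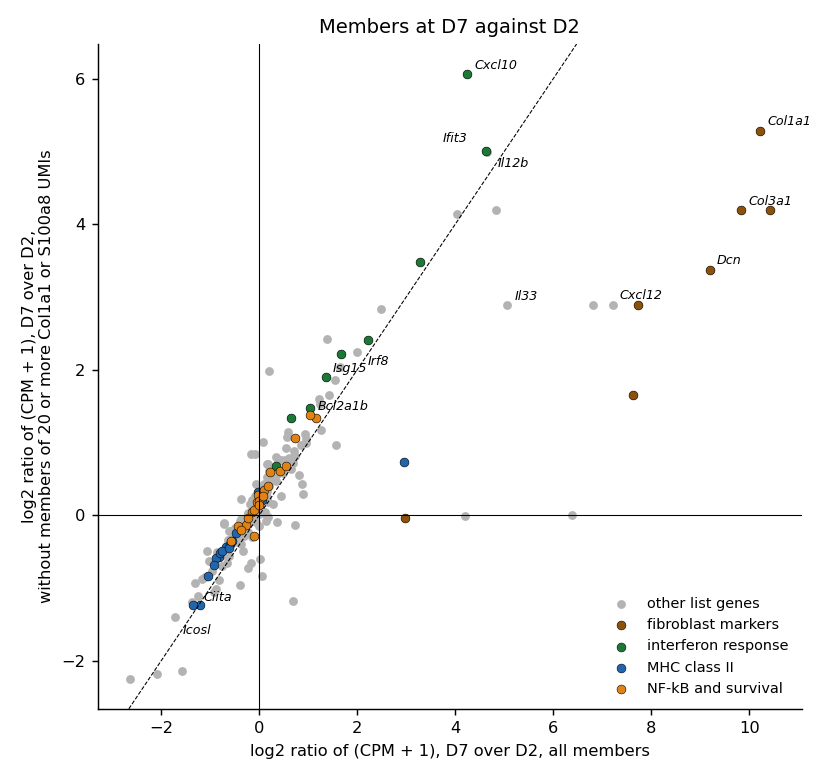
log2 ratio of (CPM + 1) of D7 over D2 members for listed genes, with all members (x) and without members holding at least 20 Col1a1 or S100a8 UMIs (y), and a dashed line of equal ratios. Fibroblast markers lie far to the right of the line, and Cxcl10, Il12b, Ifit3 and Irf8 stay high on both axes.

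Interferon-response genes summed to 1420 CPM in D7 and 495 CPM in D2 members over the 19 genes of that list found in the files, and to 1094 and 506 CPM with all members. Of the 9 that counted as measured, most did so through D7 alone, so a count of those higher carries no weight and is not given. Isg15, a ubiquitin-like protein that interferon induces, was at 357 CPM in D7 and 94.8 CPM in D2 members, with a UMI in 18 of 46 and 26 of 69 cells and 62.0% of the D7 UMIs in 3 cells. Cxcl10, the CXCR3 ligand, was at 144 and 1.17 CPM, with a UMI in 5 D7 cells and 97.0% of them in 3. Ifit1, Ifit3, Rsad2 and Irf7 were likewise concentrated, with 85.7% to 100% of their D7 UMIs in 3 cells.

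Some genes stood higher at D7 across many members. Irf8, a transcription factor that cDC1 need, was at 342 CPM in D7 and 71.4 CPM in D2 members (4.79-fold, 3.54 to 6.54), with a UMI in 28 of 46 and 21 of 69. In all members the share with an Irf8 UMI was 63.2% at D7 and 32.9% at D2, and 31.6% and 12.3% at 2000 UMIs per cell, where fibroblast-rule cells had 1.12% and 1.32%. In cDC2-rule cells the level was 82.5 CPM at D7 and 56.0 CPM at D2. Serpinb9, an inhibitor of granzyme B, was at 359 and 33.9 CPM (10.6-fold), with a UMI in 32 of 46 and 13 of 69 members, and Serpinb6b at 249 and 32.8 CPM. Both belong to a family of similar genes, so their counts are uncertain. Cd274 was at 636 and 306 CPM, Cd40 at 292 and 146 CPM, Ly75 at 346 and 114 CPM, and Bcl2a1b at 2194 and 846 CPM.

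The MHC class II group was lower at D7. With all members, 10 of 16 measured genes were at least 1.5 times as low and 1 as high, with a median log2 ratio of -0.68, where 11.8% of measured genes were as low. Without the rich cells it was 5 of 15 and 0, with a median of -0.49, where 12.7% were as low. Ciita, the class II transactivator, was at 110 CPM in D7 and 257 CPM in D2 members without those cells (2.35-fold lower, 1.73 to 3.25), and H2-Oa at 83.8 and 199 CPM. Cd74, the invariant chain, was at 13252 and 19709 CPM. The cDC2-rule cells had the same direction, with 6 of 15 genes lower at D7, 1 higher and a median of -0.49, where 5.68% of all measured genes were as low.

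Icosl, the ligand of ICOS on T cells, was lower at D7 too, at 50.1 CPM in D7 and 167 CPM in D2 members (3.32-fold lower, 2.28 to 4.97), and 2.67-fold lower (1.78 to 4.13) without the rich cells. Cyp7b1, an oxysterol hydroxylase that makes the GPR183 ligand, was at 79.6 and 463 CPM (5.82-fold lower, 4.38 to 7.87), with a UMI in 13 of 57 and 40 of 73 members. Other genes named as lowest, with all members, were Cacnb2, at 11.8 and 140 CPM, Ipcef1, St3gal4, Rasgef1b, Ccnd3 and Arhgap15. Relb and Cd86 were level, at 533 and 517 CPM and at 986 and 1024 CPM without the rich cells.

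**Figure D5:**
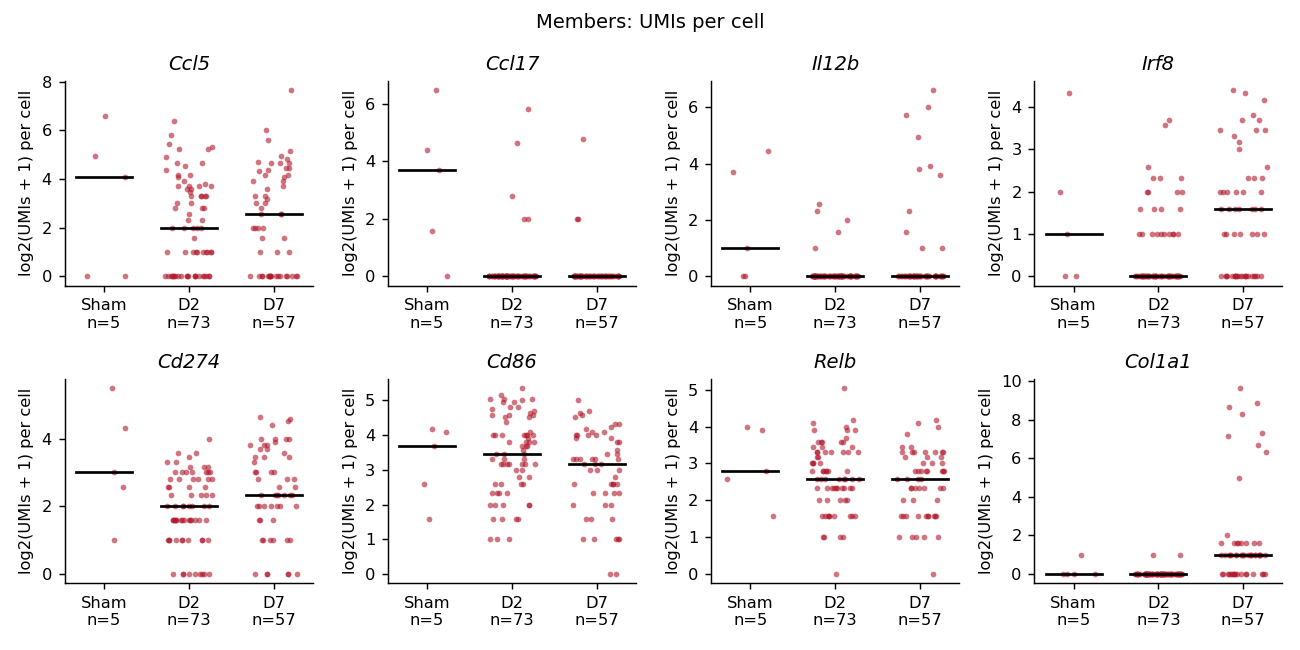
UMIs per member as log2(UMIs + 1) for 8 genes in Sham (5 cells), D2 (73) and D7 (57), each point a cell and each bar the median. Il12b and Ccl17 sit at 0 in most D2 and D7 members with a few very high cells, Relb and Cd86 are above 0 in nearly all, and Col1a1 shows 9 high D7 cells.

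Il12b, the shared chain of IL-12 and IL-23, was carried by a minority. It had a UMI in 11 of 57 D7 members (19.3%) and 5 of 73 D2 members (6.85%), and in 14.0% and 4.11% at 2000 UMIs per cell. In cDC2-rule cells the shares were 0.377% and 0.191%, and in fibroblast-rule cells 0.0336% of 2979 and 0 of 143. The level was 424 CPM in D7 and 16.0 CPM in D2 members, and 3 cells held 73.6% of the D7 UMIs. The 11 Il12b cells of D7 can be set beside the 46 other D7 members, at median depths of 10803 and 11050.5 UMIs. These 46 are not the 46 members left without the cells rich in Col1a1 or S100a8. Most of the rich D7 cells were among these other members. Values without the rich cells were not taken here, so the part of their RNA in these contrasts was not tested. Serpinb9 was at 616 CPM in the 11 and 194 CPM in the 46, with a UMI in 11 of 11 and 27 of 46. Ly75 was at 735 and 161 CPM, with a UMI in 10 of 11 and 20 of 46. Cd40 was at 490 and 219 CPM (9 of 11 and 33 of 46) and Irf8 at 545 and 243 CPM (9 of 11 and 27 of 46). Ccl5 was at 2172 and 884 CPM, but 1 Il12b cell held 200 of its UMIs. A Ccl5 UMI was found in 6 of 11 and 33 of 46, the opposite order. Other genes had a lower CPM in the 11, with Isg15 at 111 and 290 CPM and Cxcl10 at 15.8 and 118 CPM. Yet a UMI of Isg15 was found in 7 of 11 and 17 of 46, and one of Cxcl10 in 2 of 11 and 3 of 46. Il15 was at 23.7 and 50.7 CPM (3 of 11 and 13 of 46) and Il1b at 2670 and 3939 CPM (10 of 11 and 39 of 46). Fabp5 was at 5877 and 7108 CPM (9 of 11 and 45 of 46). These groups were split by a measured gene, so the values are a description, and 1 Il12b cell also held the 10 Xcr1 UMIs.

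Ccl17, which shares the receptor CCR4 with Ccl22, was also found in few cells. It had a UMI in 4 of 5 Sham, 5 of 73 D2 and 3 of 57 D7 members. At D7 the 3 cells summed to 47.2 CPM and at D2 the level was 97.1 CPM, with 93.4% of the UMIs in 3 cells. In cDC2-rule cells it was at 72.5 CPM in D7 and 10.0 CPM in D2.

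The 5 Sham members held 76109 UMIs, so their values rest on few molecules. Ccl22 was at 1813 CPM, Ccl17 at 1590 CPM, Ccl5 at 1879 CPM and Cd274 at 999 CPM in the Sham members. Single cells carried much of this. Of the 121 Ccl17 UMIs, 87 were in 1 Sham member, which also held 44 Cd274 UMIs. A different Sham member held 97 Ccl5 UMIs, and the next highest held 30. Aldh1a2, the retinal dehydrogenase that makes retinoic acid, had a UMI in all 5 Sham members at 289 CPM. Fabp5 was at 1169 CPM in Sham members, with a UMI in 3 of 5. Relb, at 552 CPM, had a UMI in all 5.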

How the data were processed

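The deposited files are unnormalized UMI counts per gene and barcode, as counts in 3 matrices of 32285 genes. Cell Ranger is given as version 7.1.0 per the file headers, but as 7.2.0, with mm10 and Seurat 5.0.1, per the submitters' processing notes. Libraries were made with the Chromium 3′ v3 kit, per the labels' protocols. The shallowest barcode in the files held 500 UMIs.

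The members, the gene lists and their limits were chosen with earlier results of these data known. Cells with under 300 genes or over 15% mitochondrial UMIs were left out. UMIs were summed per population and library and given as CPM, with exact Poisson intervals for levels, exact binomial intervals for ratios and Clopper-Pearson intervals for shares, all at a level of 0.95. Ratios for calls and log2 values use CPM + 1, and printed folds use CPM. A list call needs 1.5-fold and other calls 2-fold. The intervals cover counting error only, take UMIs as independent and so leave out the spread between cells and animals. Thinned shares use 2000 UMIs per cell. Doublets were called per library with Scrublet (scanpy 1.11.5, expected rate 8%) and left in except as an alternative. Markers of other cell types summed, in CPM, to 41.6% of their level in the whole library in D7 members and 16.6% in D2 members, and to 17.3% and 14.5% in cDC2-rule cells. The alternative that subtracts free RNA takes off this fraction of the library's profile.

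Genes are named if they are in a list and reach 50 CPM in members of any library or are at or near 0 where absence is the point. In addition, the 12 highest and 8 lowest genes over cDC2-rule cells and the 8 highest and 8 lowest at D7 over D2 are named, among genes with 100 CPM and a UMI in 10% of cells of the higher group. Mitochondrial, ribosomal, haemoglobin, immunoglobulin, sex-linked, predicted and rule genes were left out. Genes named only after cells rich in other RNA were left out (Serpinb9, Serpinb6b) were chosen after their values were seen, as were the genes set beside Il12b. Of 433 listed gene names, 428 were found. The software was Python 3.11.15 with NumPy 2.4.6, SciPy 1.17.1, pandas 2.3.3 and matplotlib 3.10.9, and the calculations were tested on simulated counts. Gene coordinates are from GENCODE M21. Results for some listed genes are not reported here.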

Additional observations from a re-analysis of the deposited data

Results flagged for a closer look

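The ratio of members to cDC2-rule cells pointed in opposite directions at D7 and D2 for 4 named or listed genes, and the difference between the libraries was not tested. For Ccl17 the log2 ratio was -0.61 at D7 and 3.16 at D2, with a UMI in 3 of 57 D7 and 5 of 73 D2 members. For Cacnb2, a calcium channel subunit, it was -2.12 at D7 and 1.21 at D2, with a UMI in 5 and 21 members. For Arhgap22, a regulator of Rac, it was 0.98 at D7 and -0.91 at D2. For Gsn, the actin-severing protein gelsolin, which fibroblasts also express, it was 0.65 at D7 and -1.68 at D2.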

How the results depend on the processing

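No paired analysis was possible because each group is 1 library. With at least 2 rule genes the share was 0.322%, 1.16% and 0.981% in Sham, D2 and D7. With at least 4 it was 0.294% in D7 and 0.357% in D2, with cells thinned first 0.356% and 0.293%, and without members of mixed markers, those with at least 3 genes of the fibroblast, neutrophil, B, T and NK, endothelial, mural or mast cell list, 0.250% and 0.497%. The D7 to D2 ratio of shares was 1.22 in thinned cells, where any H2-Ab1 UMI was enough, and 0.503 without members of mixed markers. Its direction depends on these choices. Genes 2-fold higher at D7 numbered 115 under the limit of 100 CPM and 40 UMIs, 103 without members of mixed markers and 156 without the rich cells, against 303, and genes 2-fold lower 54, 174 and 121, against 110. They were 293 with free RNA subtracted and 175 with at least 4 rule genes. Over cDC2-rule cells, 169 genes were higher and 137 lower under that CPM limit, and 434 lower with free RNA subtracted. With free RNA subtracted, list medians moved to 1.21 for co-stimulation and 2.78 for restraint at D7 and to -3.64 and -6.15 for uptake in D2 and D7. Uptake at D7 was -2.73 without members of mixed markers and -2.43 with at least 4 rule genes, and restraint at D7 was 1.62 against all other dendritic cells. The cause was not tested. The log2 ratio of Ccl17 at D7 over D2 reversed to 3.10 with at least 4 rule genes. In the other 121 cases list medians moved by at most 0.5 on the log2 scale, and of the single-gene ratios 401 kept close to the main value and 144 moved without a change of direction among called genes. With 73 and 57 cells, a gene in under 4.11% and 5.26% of them can be missed.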
